A study of Mus musculus with 2 samples.

Results

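The genes described here mark the blood vessels of white matter: the endothelial cells that line them, the junction proteins and transporters of the blood–brain barrier, and the mural cells, which are pericytes and smooth muscle cells, around them. The list held 36 genes, chosen by name. A gene was used when the brightest of its probe sets, the groups of short probes by which an array measures 1 transcript, was above the median signal of both arrays together (the floor, a signal of 106.4) on at least 1 array. This left 30 of the 36 genes, out of 12473 of 18193 genes in all. The tissue was white matter, that is optic nerve with optic tract, from male CD47 knockout mice (CD47 KO, labelled CD47 null) of 12 to 15 weeks of age and from male wild-type (WT) mice of 13 to 15 weeks. Each genotype had 1 array, hybridised with RNA that had been pooled over animals. The sources disagree on their number: the design text of the series has 4 CD47 KO and 5 WT mice, as have the methods of the study, whereas the labelling protocol has 5 CD47 KO and 4 WT mice. The knockout is germline, so that vessel cells lack CD47 as all others do, and neither labels nor methods state the strain background of these mice.

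CD47 is a membrane protein of many cell types, endothelial cells among them, and binds SIRPα on microglia and thrombospondin in the matrix. Brain endothelium differs from that of other organs in its closed tight junctions, built on claudin-5 and occludin, and in the pumps and carriers that set what enters the tissue. Growth factor receptors for VEGF and the angiopoietins maintain the endothelium, and pericytes embedded in the same basement membrane are needed for the barrier to form. In a sample of whole tissue, fewer vessel cells and less RNA per vessel cell cannot be told apart.

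Of the 30 vessel genes, none was over 2-fold higher or lower in CD47 KO white matter. With signals under the floor set to it, 28 differed by 1.5-fold or less. Over all genes, 1.21% were over 2-fold higher and 0.818% over 2-fold lower. The exceptions at 1.5-fold were Cd34, a sialomucin of endothelium and of blood progenitor cells, which was 1.75-fold higher in CD47 KO, and Kdr, the main signalling receptor for VEGF-A, which was 1.72-fold lower. That is 1 of 30 genes in each direction, where 4.02% of all genes were over 1.5-fold higher and 4.68% over 1.5-fold lower, which is close to the share among the vessel genes. Icam2, a bound of at least 1.42-fold higher, was also over 1.5-fold higher when no floor was used. Small differences were more often downward: 21 of the 30 had a log2 ratio of CD47 KO over WT below 0, or 70.0%, against 53.2% of all genes, and 9 had one above 0, against 46.8%. The 3 genes with 1 array at the floor took their sign from the array that passed it, Robo4 and Sox18 below 0 and Icam2 above. The median log2 ratio was -0.13 for the 30 genes and -0.02 for all 12473. With 1 pool per genotype there is no replicate check, no test was possible, and all ratios compare these 2 pools.

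The sole repeat measurement within the arrays was that of different probe sets of 1 gene. There were 11653 such pairs in 4740 genes, counting probe sets above the floor on both arrays. The 2 log2 ratios of a pair differed with an SD of 0.36, and 95% of pairs lay within 0.74 of each other. Of the 30 vessel genes, 28 had a log2 ratio within 0.74 of 0, with Kdr and Cd34 outside, and 18 lay within 1 SD. A difference between 2 ratios carries the noise of both, so in this respect the spread is wider than that of 1 ratio. A gene within 1 SD of probe sets, here and below, is therefore not shown to be unchanged. Variation between mice and between hybridisations is not part of this spread. Signals of different probe sets depend on their probes, so a difference is always that of 1 probe set between the arrays. Brightness groups and summed signals of lists serve only as a rough guide to how dim a gene or a list was.

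The labels were checked first. The targeted gene Cd47 had a signal of 1346 in CD47 KO and 3928 in WT by its brightest probe set, a log2 ratio of -1.54. It was lower in CD47 KO by all 4 probe sets that reached above the floor. By the brightest, a signal of 34.3% of WT remained in CD47 KO, so the arrays do not show absence of the transcript. The summed signal of 9 marker genes of oligodendrocytes and myelin was 248307 in CD47 KO and 229239 in WT and all 9 were above the floor on both arrays. Of the vessel genes 27 were above the floor on both arrays and 3 on 1 array, but several defining markers were not measured above it. Pecam1 (CD31) had a signal of 68.5 in CD47 KO and 88.8 in WT, and the receptor gene Tie1 of 6.35 in CD47 KO and 3.18 in WT, both under the floor by their only probe set. The aminopeptidase gene Anpep, of pericytes and meningeal cells, was at 80.1 in CD47 KO and 67.8 in WT, and the smooth muscle myosin gene Myh11 at 22.5 in CD47 KO and 51.9 in WT by the brighter of 2 probe sets. No probe set named Ly6c1 or Ly6a alone, so that neither was analysed here.

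**Figure D1:**
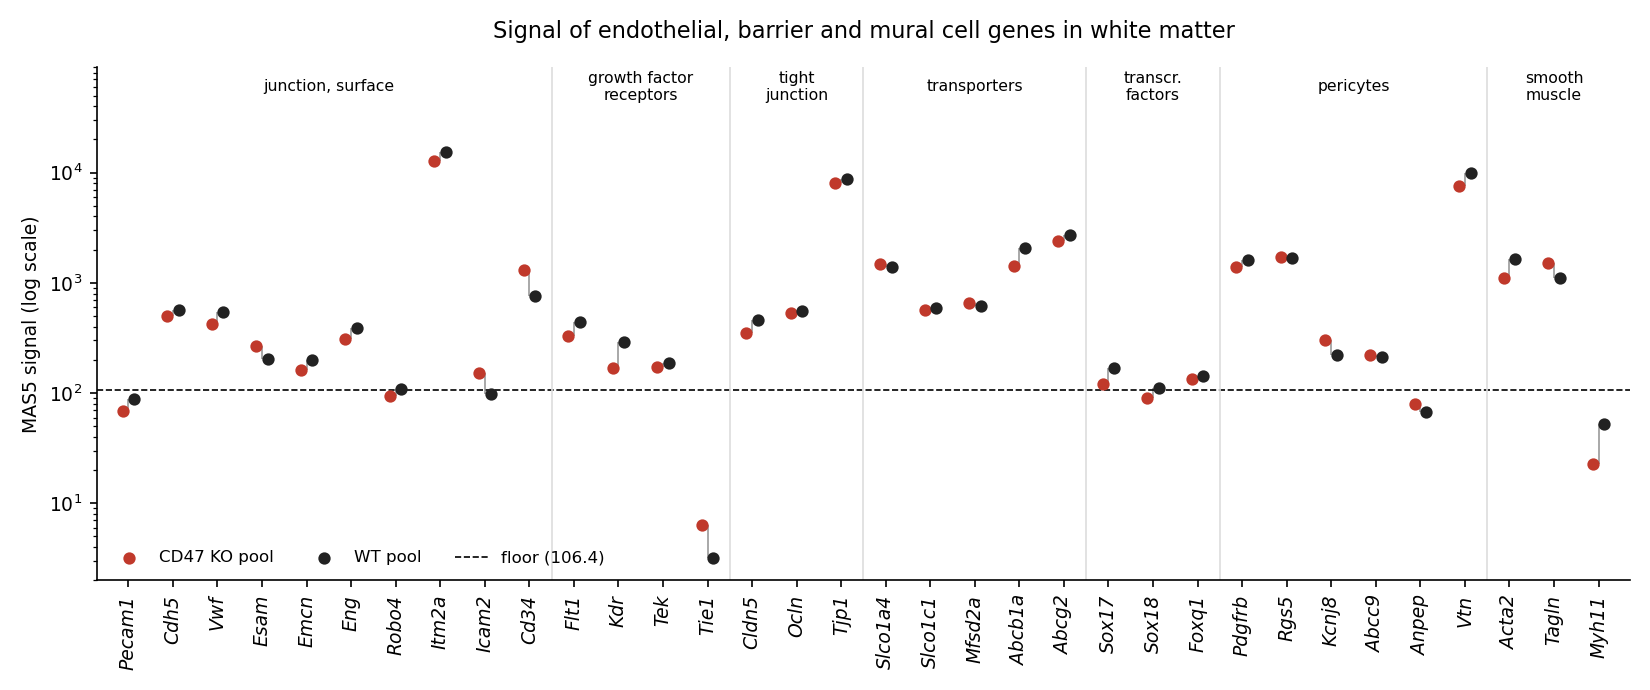
MAS5 signal (log scale) of the 34 vessel genes with a probe set of their own, by role, with 1 point for the CD47 KO pool (red) and 1 for the WT pool (black), and the floor at 106.4 drawn dashed. The points of most genes lie close together, Kdr and Cd34 lie furthest apart among genes above the floor on both arrays, and Pecam1, Tie1, Anpep and Myh11 lie under the floor on both.

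Of the receptors that keep endothelium alive and quiescent, 3 were measured. All 3 had a log2 ratio below 0, as had 53.2% of all genes, and Kdr alone was past 1.5-fold. Kdr (VEGFR2) had a signal of 168 in CD47 KO and 289 in WT (log2 ratio -0.79), so that the CD47 KO signal was 58.0% of that in WT. Kdr has 1 probe set, and its signal lay in the dimmest of 4 equal groups of genes, in which 9.20% of genes were over 1.5-fold lower. Flt1 (VEGFR1), a high-affinity receptor that holds VEGF-A away from Kdr, had a signal of 332 in CD47 KO and 440.3 in WT (log2 ratio -0.41). Of its 3 other probe sets, 1 was at 352 in CD47 KO and 416 in WT (log2 ratio -0.24) and 1 at 119.8 in CD47 KO and 185 in WT (-0.63). The third, at 113.9 in CD47 KO and 108.2 in WT, lay next to the floor and was higher (0.07). Tek (TIE2), the receptor of the angiopoietins, had a signal of 172 in CD47 KO and 188 in WT (log2 ratio -0.13), within 1 SD of probe sets. With the 60th percentile as floor its CD47 KO signal fell under the floor, and its log2 ratio was a bound of -0.01. The median over these 3 receptors was -0.41. It was -0.23 after quantile normalisation.

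Endothelial receptor genes and Cd34 are known targets of ETS transcription factors, and the sequence before their start sites is shown for the genes furthest from 0, Kdr and Cd34, and for the other 2 receptors measured. Each is the 250 bases upstream of the start in the RefSeq promoter table (build GRCm38.p6), with matches to a core ETS motif in capitals (AGGAAG or CGGAAG, either strand, so that CTTCCT and CTTCCG count as well). The genes are Kdr (chr5:75978456-75978705, minus strand), Flt1 (chr5:147726012-147726261, minus strand), Tek (chr4:94739039-94739288, plus strand) and Cd34 (chr1:194938571-194938820, plus strand).
Kdr: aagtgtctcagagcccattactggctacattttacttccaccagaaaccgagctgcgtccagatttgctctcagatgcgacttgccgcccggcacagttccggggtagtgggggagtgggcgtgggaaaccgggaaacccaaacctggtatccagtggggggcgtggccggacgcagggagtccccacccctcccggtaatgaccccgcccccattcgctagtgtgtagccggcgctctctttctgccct
Flt1: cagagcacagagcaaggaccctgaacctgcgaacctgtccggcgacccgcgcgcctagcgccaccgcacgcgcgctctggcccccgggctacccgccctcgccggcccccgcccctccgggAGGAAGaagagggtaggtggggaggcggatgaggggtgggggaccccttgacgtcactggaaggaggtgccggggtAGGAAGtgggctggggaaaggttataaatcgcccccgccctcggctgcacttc
Tek: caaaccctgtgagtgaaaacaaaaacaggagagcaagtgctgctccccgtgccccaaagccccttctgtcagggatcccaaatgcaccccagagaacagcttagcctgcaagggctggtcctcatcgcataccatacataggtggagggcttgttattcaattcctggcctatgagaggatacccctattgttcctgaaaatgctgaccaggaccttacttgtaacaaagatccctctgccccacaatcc
Cd34: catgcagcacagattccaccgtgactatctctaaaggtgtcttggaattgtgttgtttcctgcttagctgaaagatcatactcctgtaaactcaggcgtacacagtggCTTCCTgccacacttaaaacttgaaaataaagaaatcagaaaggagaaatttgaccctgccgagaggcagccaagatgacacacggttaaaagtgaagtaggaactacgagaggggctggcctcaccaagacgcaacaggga
Flt1 held 2 matches and Cd34 held 1, on the opposite strand, while these letters are not in the windows of Kdr and Tek. The gene with the higher signal in CD47 KO and one with a lower signal thus both held the motif. Of the 24 vessel genes with a sequence in the table, 13 (54.2%) held it in these 250 bases, against 42.5% of all 27025 genes. A core motif of SOX factors (ACAAAG or ACAATG, either strand) was in 7 of the 24 (29.2%), against 28.2% of all genes. The strict form of the CArG box (CCWWWWWWGG, where W is A or T) was in none of the 24, against 1.62%. Boxes that depart from this form were not searched for, and of the smooth muscle genes only Acta2 had a sequence in the table. A gene was counted when any of its listed start sites had the match. No sequence shown held both an ETS and a SOX match, so that none overlapped. A match is a description of the letters and was not tested for binding.

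Surface molecules of endothelium went both ways. Cd34 had a signal of 1319 in CD47 KO and 753 in WT (log2 ratio 0.81). Its signal lay in the third of the 4 brightness groups, in which 2.79% of genes were over 1.5-fold higher, and it has 1 probe set. Esam, an adhesion molecule of endothelial junctions, was at 267 in CD47 KO and 203 in WT (log2 ratio 0.39). Icam2, a ligand for leukocyte integrins that endothelium carries at rest, was above the floor only in CD47 KO, at 151.5 in CD47 KO against 98.9 in WT, and hence at least 1.42-fold higher. These were 3 of the 9 measured surface genes.

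The other 6 were lower, each by less than 1.5-fold. Vwf, the von Willebrand factor that binds platelets, was at 424 in CD47 KO and 544 in WT (log2 ratio -0.36). Eng (endoglin), a co-receptor for TGF-β family ligands, was at 312 in CD47 KO and 389.7 in WT (log2 ratio -0.32), with -0.26 for its other probe set. The sialomucin gene Emcn was at 161 in CD47 KO and 199 in WT (log2 ratio -0.31). Itm2a, a membrane protein gene strongly expressed in brain endothelium, was at 12791 in CD47 KO and 15282 in WT (log2 ratio -0.26), and its second probe set gave -0.32. Cdh5 (VE-cadherin), the adhesion molecule of endothelial adherens junctions, was at 498 in CD47 KO and 562 in WT (log2 ratio -0.17). Robo4, a guidance receptor of endothelium, was at 93.5 in CD47 KO and 108.3 in WT, where it was just above the floor. None of these 6 lay outside 1 SD of probe sets.

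The 3 tight junction genes had log2 ratios below 0 by their brightest probe sets, as had 53.2% of all genes. Cldn5 (claudin-5), the principal sealing protein of the barrier, had a signal of 350.2 in CD47 KO and 463 in WT (log2 ratio -0.40), 75.7% of WT. Ocln (occludin) was at 537 in CD47 KO and 558 in WT (log2 ratio -0.06), and its second probe set gave 0.03. Tjp1 (ZO-1), the scaffold beneath the junction, was at 7975 in CD47 KO and 8732 in WT (log2 ratio -0.13), a gene that many cell types express. Only Cldn5 of the 3 lay outside 1 SD of probe sets.

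Among the 5 transporters 1 stood apart. Abcb1a (P-glycoprotein), the efflux pump that returns drugs to the blood, had a signal of 1413 in CD47 KO and 2072 in WT (log2 ratio -0.55), 1.47-fold lower. Its second probe set was at 1357 in CD47 KO and 1866 in WT (log2 ratio -0.46). The other efflux pump, Abcg2, was at 2418 in CD47 KO and 2705 in WT (log2 ratio -0.16). The carriers differed less. Slco1a4, which carries organic anions, was at 1482 in CD47 KO and 1379.95 in WT (log2 ratio 0.10). Slco1c1, which carries thyroid hormone, was at 571 in CD47 KO and 592 in WT (log2 ratio -0.05). Mfsd2a, which carries docosahexaenoic acid as a lysolipid and holds back transcytosis, was at 658 in CD47 KO and 622 in WT (log2 ratio 0.08). The transcription factor genes were dim. Sox17, which directs arterial identity, was at 120.2 in CD47 KO and 169 in WT (log2 ratio -0.49), by a probe set marked as able to cross-hybridise. Foxq1, a forkhead factor gene of brain endothelium, was at 134 in CD47 KO and 142 in WT (log2 ratio -0.09). Sox18, a relative of Sox17, was at 89.3 in CD47 KO and 111 in WT, and so above the floor only in WT.

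Mural genes showed no common direction, with 4 of 7 higher and a median log2 ratio of 0.03. Vtn, which encodes vitronectin and is strongly expressed by brain pericytes, had a signal of 7483 in CD47 KO and 9993 in WT (log2 ratio -0.42), and its second probe set was at 3277 in CD47 KO and 4817 in WT (log2 ratio -0.56). Pdgfrb, the receptor by which pericytes are recruited, was at 1401 in CD47 KO and 1620.1 in WT (log2 ratio -0.21). Its dimmer probe set went the other way, at 191 in CD47 KO and 91.5 in WT, at least 0.85 on the log2 scale, and the median over both was 0.32. The direction of Pdgfrb was therefore not settled. Rgs5, a regulator of G protein signalling, was at 1706 in CD47 KO and 1675 in WT (log2 ratio 0.03). The potassium channel subunits Kcnj8 (Kir6.1) and Abcc9 (SUR2) form 1 channel in pericytes. Kcnj8 was at 305 in CD47 KO and 220.3 in WT (log2 ratio 0.47), outside 1 SD of probe sets. Abcc9 was at 222 in CD47 KO and 213 in WT (log2 ratio 0.06), well within it, by a probe set that can cross-hybridise, while its other 2 were under the floor.

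The 2 measured smooth muscle genes pointed in opposite directions. Acta2 (smooth muscle α-actin) had a signal of 1117 in CD47 KO and 1644 in WT (log2 ratio -0.56), by a probe set that can cross-hybridise with transcripts of other genes, while its other 2 were under the floor. Tagln (SM22α), an actin-binding protein of the same cells, was at 1520.4 in CD47 KO and 1101 in WT (log2 ratio 0.47). Both lay outside 1 SD of probe sets, on either side of 0.

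**Figure D2:**
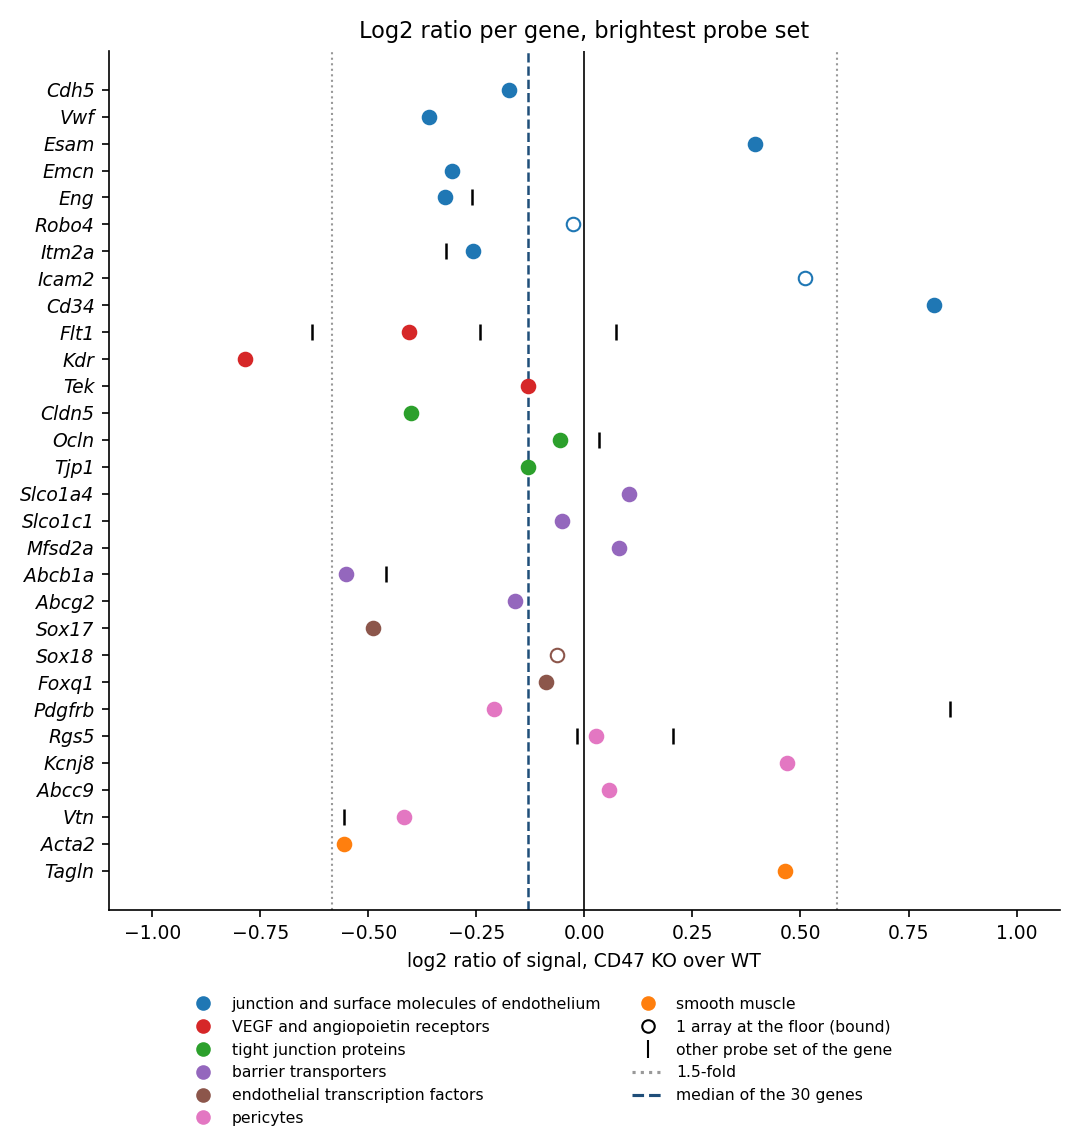
Log2 ratio of signal, CD47 KO over WT, for the 30 vessel genes above the floor, coloured by role; ticks are other probe sets of the same gene, open circles are bounds with 1 array at the floor, dotted lines mark 1.5-fold and the dashed line the median of -0.13. Kdr and Cd34 are the 2 genes beyond the dotted lines, and a second probe set of Pdgfrb, itself a bound, lies on the other side of 0 from the first.

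By cell class, the 23 endothelial and barrier genes had a median log2 ratio of -0.13 with 18 of 23 (78.3%) below 0, and the 7 mural genes a median of 0.03 with 3 of 7 below 0, beside 53.2% of all genes. The 23 include the 3 genes whose sign followed from the array that passed the floor (Robo4, Sox18 and Icam2). The difference between these classes was not tested. Over the 7 vessel genes with more than 1 probe set above the floor on both arrays, all probe sets were lower in CD47 KO for 4, namely Abcb1a, Eng, Itm2a and Vtn, and they fell on both sides of 0 for Flt1, Ocln and Rgs5. Past 1 SD of probe sets there were 7 vessel genes that were lower and 5 that were higher, of 30, beside 12.6% and 9.44% of all genes.

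**Figure D3:**
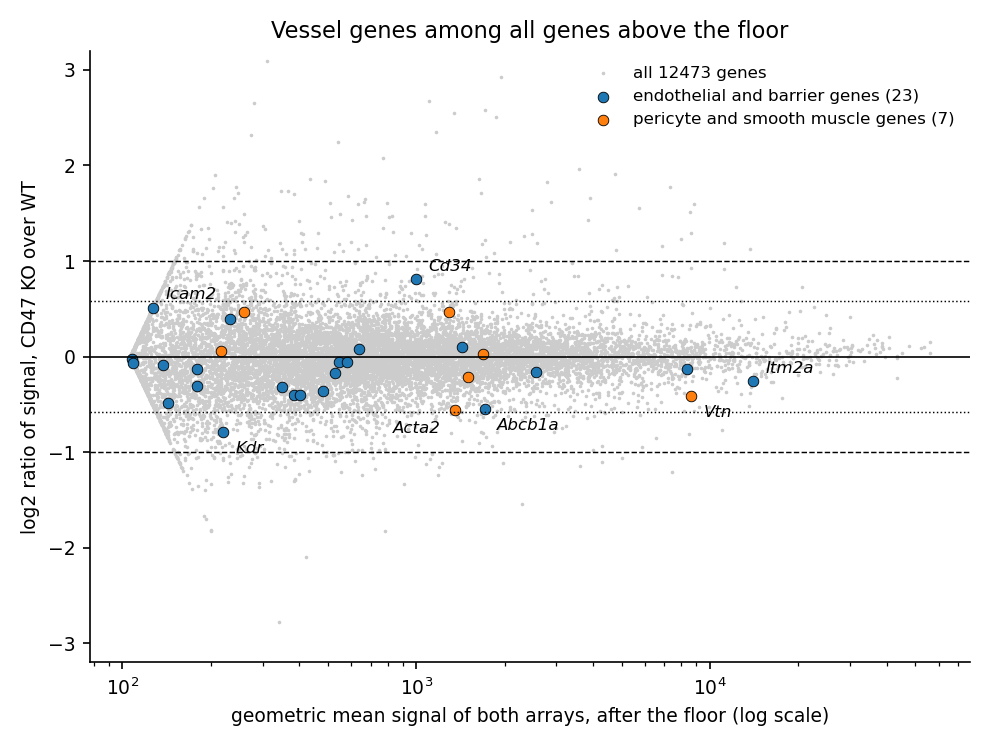
Log2 ratio of CD47 KO over WT (vertical) against the geometric mean signal of both arrays (horizontal, log scale) for all 12473 genes above the floor (grey), the 23 endothelial and barrier genes (blue) and the 7 mural genes (orange); dotted lines mark 1.5-fold, dashed lines 2-fold, and 1 gene lies outside the vertical range. All vessel genes lie within the dashed lines, more of them under 0 than above it.

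Further genes of vessel pathways were taken from 12 lists, of which 139 of 164 genes were above the floor. Of these, 60 were above 0 and 79 below, with a median of -0.06, none was over 2-fold either way, 4 were over 1.5-fold higher and 9 over 1.5-fold lower. Over all genes 53.2% were below 0, 4.02% over 1.5-fold higher and 4.68% over 1.5-fold lower. The VEGF, angiopoietin, PDGF and apelin ligands had no common direction, with a median of 0.00 over 10 genes and 5 on each side of 0. Angpt1, the angiopoietin that activates Tek and is made by mural cells, was at 1672 in CD47 KO and 1118 in WT (log2 ratio 0.58). The lymphatic growth factor genes Vegfc and Vegfd had log2 ratios of -0.53 and -0.50, and Vegfa had one of 0.07. The list of VEGF co-receptors and PDGF or apelin receptors was close to 0, with Aplnr (0.17, a bound), Nrp1 (0.15) and Ptprb (-0.14) the furthest from it. Among 9 Notch genes, Heyl, a Notch target of mural cells, was 1.76-fold lower (117 in CD47 KO and 205 in WT), by 1 of 3 probe sets.

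Wnt signalling through Fzd4 induces the barrier. Of 13 measured genes of this pathway 8 were below 0 (53.2% of all genes), with a median of -0.16. Tspan12, the co-activator of norrin signalling on endothelium, was 1.71-fold lower, at 513 in CD47 KO and 876 in WT. Its only probe set can cross-hybridise. The ligand gene Wnt7a was at least 1.86-fold higher, with 198 in CD47 KO and 78.5 in WT, by 1 of 3 probe sets and with WT under the floor. Within 1 SD of probe sets lay the receptor gene Fzd4 (log2 ratio -0.27), the co-receptor gene Reck (-0.30) and the ligand gene Ndp (norrin, 0.25). Just outside it lay the co-receptor gene Adgra2 (-0.40), also by a probe set that can cross-hybridise, and the ligand gene Wnt7b (0.38). The target genes Axin2 (-0.01), Apcdd1 (-0.24) and Lef1 (0.27) were within it. The median over this list was -0.01 without probe sets that can cross-hybridise.

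Other junction genes held 2 of 9 that were over 1.5-fold lower (4.68% of all genes). Cgnl1 (paracingulin), a plaque protein of endothelial junctions, was at 415 in CD47 KO and 745 in WT, 1.80-fold lower by 1 of 5 probe sets, and Lsr (angulin-1), a protein of junctions where 3 cells meet, was at least 1.70-fold lower by 1 of 2. The junctional adhesion molecules F11r (0.38), Jam2 (0.50) and Jam3 (0.32) were higher. Other transporters had a median of 0.09 over 17 genes. The organic anion transporter gene Slc22a8 was 1.54-fold lower, with log2 ratios of -0.62 and -0.60 for its 2 probe sets, whereas Slc2a1 (the glucose carrier GLUT1) had one of -0.10 and Tfrc (the transferrin receptor) one of 0.00. Among 22 other endothelial genes 14 were below 0 (53.2% of all genes), with a median of -0.12, of which Ctla2a, a protease inhibitor gene, was 1.71-fold lower. Egfl7, a secreted endothelial factor, was 1.58-fold lower by its brightest probe set, but 2 of its 3 others were higher, and its direction was not settled. The ETS factor genes had log2 ratios of 0.37 for Fli1, 0.24 for Ets1 and, as a bound, -0.11 for Erg.

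The TGF-β and BMP list had a median of 0.01 over 11 genes. The receptor gene Tgfbr1 was 1.53-fold higher by 1 of 3 probe sets, and the inhibitory SMAD gene Smad6 1.54-fold lower by its only one. Both genes are expressed in many cell types. The 13 basement membrane genes ran from -0.42 (Lamb1 and Lamc1) to 0.43 (Nid2), with a median of -0.12. Of 17 other pericyte genes 14 were below 0 (53.2% of all genes), with a median of -0.27, which moved to -0.08 when the 40th or 60th percentile served as floor and to -0.14 when each array was centred on its median. The list of meningeal and fibroblast genes, with which it shares Slc6a20a, had 14 of 14 measured genes below 0 (53.2% of all genes). This meningeal list had a median of -0.28 and summed signals of 75931 in CD47 KO and 90268 in WT. The peptidase gene Enpep was 1.63-fold lower, and Des (desmin) was at least 1.83-fold higher, with 195 in CD47 KO and 29.2 in WT by 1 of 2 probe sets. Other smooth muscle genes had a median of 0.12 over 10 genes, and of -0.02 once the floor was raised to the 60th percentile.

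The list of adhesion molecules of activated endothelium, by which leukocytes are caught, was the one vessel list with every measured gene above 0. It held 4 measured genes of 7 listed, with a median of 0.51. Over all genes 46.8% were above 0 and 4.02% were over 1.5-fold higher. Vcam1, the ligand of the integrin VLA-4, was at 3331 in CD47 KO and 1784 in WT, 1.87-fold higher. Its second probe set was at 646 in CD47 KO and 409 in WT (log2 ratio 0.66) and its dimmest at 136 in CD47 KO and 209 in WT (-0.61). Icam1, the ligand of the integrin LFA-1, was at 485 in CD47 KO and 328 in WT (log2 ratio 0.56). Lrg1 had a log2 ratio of 0.47 and the venular chemokine receptor gene Ackr1 one of 0.05. The selectin genes Sele and Selp and Madcam1 were under the floor on both arrays. Vcam1 and Icam1 are also expressed by activated glia. Microglial marker genes were higher in CD47 KO for 11 of 14, with a median of 1.07 and a summed signal of 87250 in CD47 KO and 43858 in WT, and their part in the adhesion molecules was not tested.

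**Figure D4:**
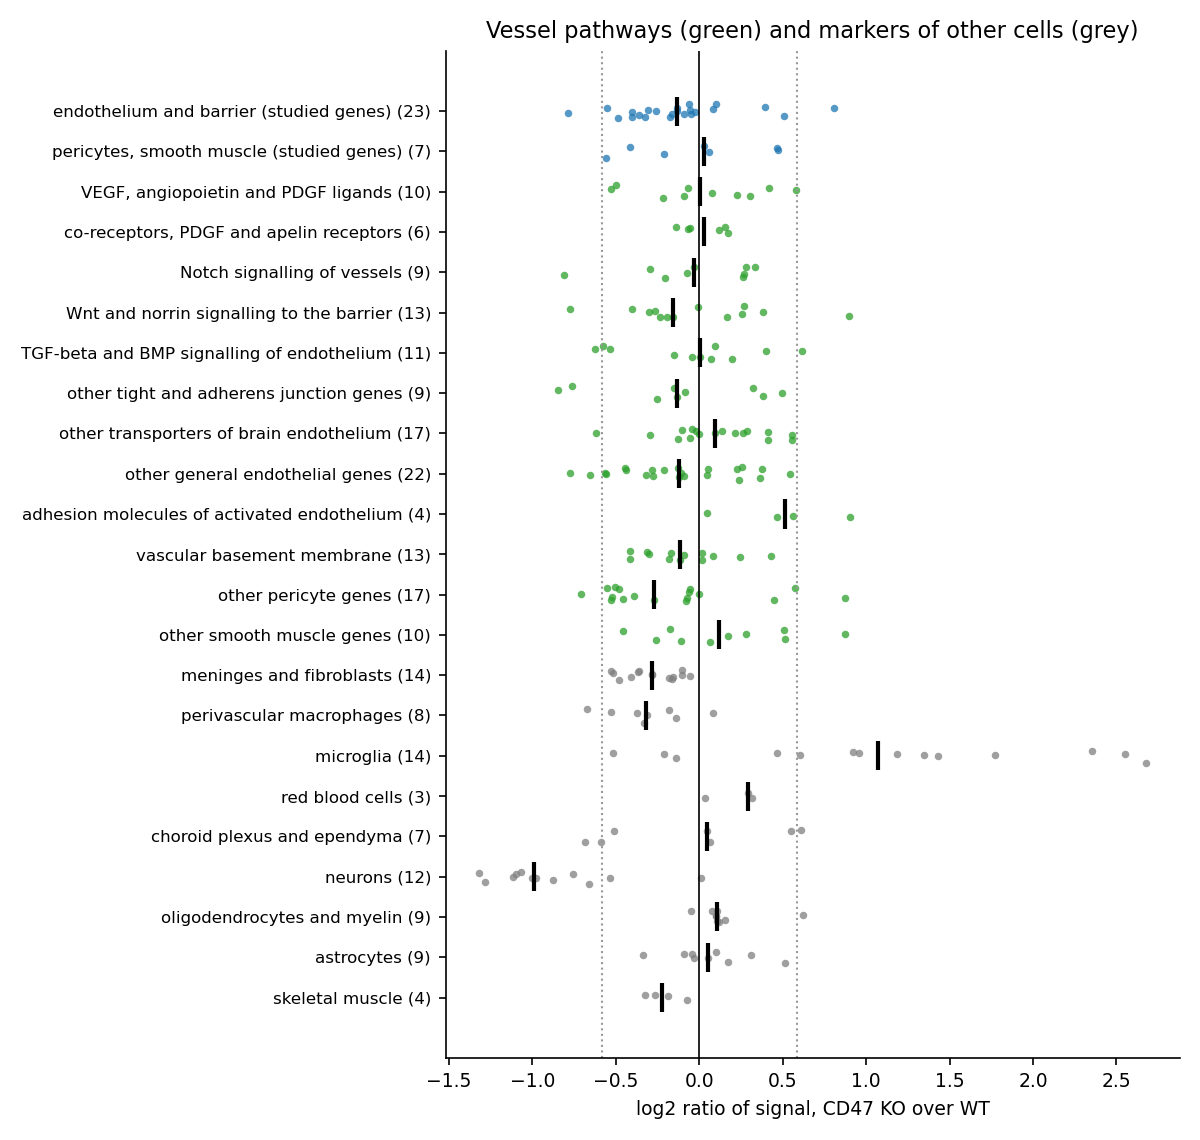
Log2 ratio of CD47 KO over WT for the vessel genes described (blue), for lists of vessel pathways (green) and for markers of other cells (grey), with 1 point per gene above the floor, a bar at the median, the number of genes in brackets and dotted lines at 1.5-fold. The medians of the vessel lists lie between -0.27 and 0.12 except for the adhesion molecules at 0.51, while those of microglia (1.07) and neurons (-0.99) lie far from 0.

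Markers of further cells differed between the pools, and their part in the values of the vessel genes, like that of the meningeal and microglial genes, was not tested. Beside the counts below, 53.2% of all genes were below 0 and 46.8% above 0. Neuronal genes were lower for 11 of 12, with a summed signal of 11220 in CD47 KO and 20087 in WT. Perivascular macrophage genes were lower for 7 of 8, with a median of -0.32 and sums of 3817 in CD47 KO and 4854 in WT. Of the red blood cell list, which tracks blood left in the vessels, 3 genes were measured and 3 were above 0, with sums of 1409 in CD47 KO and 1242 in WT. Genes of choroid plexus and ependyma were below 0 for 3 of 7 (sums of 2209 in CD47 KO and 2480.06 in WT) and those of skeletal muscle for 4 of 4 (733 in CD47 KO and 887 in WT). Astrocyte genes were higher for 5 of 9, with sums of 139199 in CD47 KO and 130323 in WT. The 3' to 5' ratio, a measure of RNA integrity, was 1.13 for Gapdh and 2.19 for β-actin in CD47 KO, and 1.05 for Gapdh and 2.42 for β-actin in WT.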

How the data were processed

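Total RNA of optic nerve and optic tract was pooled by genotype. It was hybridised to 1 Affymetrix Mouse Genome 430 2.0 array for CD47 KO and 1 for WT. The deposited values are linear signal intensity, 1 per probe set and array, computed by MAS5. The authors scanned the arrays with Command Console and processed them with Expression Console, and MAS5 is the tool named in the submitters' processing notes, with its version not given in the sources used here. Both arrays had a trimmed mean of 500.003 (2% left out at each end), so that each had been scaled by 1 factor. Median signals were 105 (CD47 KO) and 107.8 (WT). MAS5 signals near background are noisy, and precision is limited by the number of arrays.

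From 45101 probe sets, 64 control probe sets were left out. By the platform annotation 34945 probe sets had 1 gene, 932 several and 9160 none, and probe sets with several or none named no gene. Of those with 1 gene, 34741 were matched by gene identifier to RefSeq (assembly GRCm38.p6) for current symbols. The brightest probe set stood for a gene, by the mean log2 signal. Signals under the floor were set to it, and ratios were then computed on the log2 scale. Where 1 array was at the floor, the ratio is a bound ("at least"). Genes over 2-fold (the threshold of the study) and 1.5-fold were counted. No test between genotypes was possible. The 36 genes were given by name, and they and the other lists (28 lists with 294 genes in all) were chosen with earlier results of these data known. All of the 36 genes are named. Of each vessel list the genes over 1.5-fold are named, or else the 3 furthest from 0; other genes were chosen after their values were seen, and lists of other cell types are given by counts and sums. The steps were checked on simulated data with 200 genes of known fold change. These genes were well above the floor and changed by 2-fold or more, so the check did not cover dimmer genes or smaller differences. As alternatives, the floor was put at the 40th or 60th percentile, left out, or set for each array. Others were quantile normalisation, centring on the median, removal of a loess trend, the median over the probe sets of a gene, and leaving out probe sets marked for cross-hybridisation. Python 3.11.15 with numpy 2.4.6, pandas 2.3.3 and statsmodels 0.14.6 was used.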

Additional observations from a re-analysis of the deposited data

How the results depend on the processing

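Each result was recomputed under 9 alternatives. Of the 30 vessel genes, 29 kept the sign of their log2 ratio under each alternative that gave a value, 20 of them lower and 9 higher in CD47 KO, and Pdgfrb did not (0.32 by the median over its probe sets). No vessel gene was over 2-fold under any of the alternatives. Kdr ranged from -0.79 to -0.63 (a bound, with CD47 KO under the floor at the 60th percentile), and Cd34 from 0.81 to 0.85. The median over the vessel genes ranged from -0.17 to -0.09 and that of all genes from -0.02 to 0.02. A floor at the 40th percentile left 32 vessel genes and one at the 60th percentile 25. At the 40th percentile or without a floor, 2 vessel genes were over 1.5-fold higher, since the ratio of Icam2 was then less shortened. Over all genes, without a floor 250 were over 2-fold higher and 250 lower; 173 were over 2-fold lower at the 40th percentile and 55 at the 60th, where 352 were over 1.5-fold lower. By role, the median of the receptors was -0.23 under quantile normalisation, and that of the transcription factors -0.32 at the 40th percentile or without a floor. Centring on the median moved the share of all genes below 0 to 46.6%, while 21 of 30 vessel genes stayed below. Without probe sets marked for cross-hybridisation the median was -0.092 for pericyte genes and 0.47 for smooth muscle, where only Tagln was left. Signals close to background limit the values of Kdr, Tek, Sox17, Sox18, Foxq1, Robo4, Icam2 and Emcn, and at the 60th percentile the log2 ratio of Tek was -0.01 and that of Emcn -0.09. No paired analysis was possible because each genotype had 1 array, so no array could be left out either.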
